A study of Mus musculus with 6 samples.

Results

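The 43 genes described here are Myc and 42 genes for nucleolar ribosome biogenesis, read from the deposited count table by their symbols. All 43 had reads in every library and all passed the filter on low counts, among 21878 genes in the table and 12136 genes tested. The genes were taken as a pathway and not by their measured values, though earlier results of these data were known when they were chosen. In the gene annotation that the table itself carries, 36 of the 43 bear the Gene Ontology term for the nucleolus.

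MYC is a transcription factor that binds DNA together with its partner MAX, and genes for making ribosomes are among its best known targets. In the nucleolus, RNA polymerase I copies the ribosomal RNA genes into a long precursor. Small nucleolar ribonucleoproteins (snoRNPs) then modify that precursor, and assembly factors cut it, fold it and load it with ribosomal proteins to give the small and the large ribosomal subunit. In macrophages MYC is known for growth and for the response to alternative activation signals.

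The libraries were bulk mRNA sequencing of tumour-associated macrophages, the macrophages found inside a tumour, collected by fluorescence-activated sorting. KO libraries came from Trmt61af/fLysmCre mice, in which Cre expressed from the lysozyme M locus of myeloid cells deletes floxed Trmt61a, and WT libraries from Trmt61af/f mice, which carry the floxed alleles without Cre. All mice bore MC38 tumours, a mouse colon carcinoma line, injected 14 days before collection. Each genotype had 3 libraries. Nothing in the labels ties a library to a single mouse or to a pool, so the spread behind each p-value may be technical. The sources used here give no age, sorting gate or list of deleted exons.

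Trmt61a makes the catalytic part of the methyltransferase that places m1A on tRNA, and the comparison asks how macrophages in a tumour differ without it. Trmt61a RNA followed the labels in all 6 libraries, at 7.45 ± 0.532 CPM in WT against 2.11 ± 0.366 CPM in KO (SD, n = 3 each; edgeR adjusted p = 0.0426). The adjusted p was above 0.05 in 8 of 15 alternatives, up to 0.314, with the log2 fold change between -1.94 and -1.69 throughout. CPM are counts scaled to a common library size. Library totals ran from 18839026 to 20313597 counts, and KO replicate 2 stood apart on the first principal component, at 29.4 against -18.0 to 5.26 for the others. The 12 macrophage identity genes were all present and summed to 15427 ± 875 CPM in WT against 14506 ± 233 CPM in KO (exact permutation p = 0.2, where 0.1 is the smallest p that 3 against 3 allows).

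The RNA of the MYC and nucleolar genes was close to the WT level in the KO libraries. Only KO mice carried Cre, so its presence and the loss of Trmt61a cannot be told apart here. None of the 43 passed at an adjusted p under 0.05 with edgeR, where adjusted p ran from 0.701 to 0.998, and 0 passed with DESeq2. Over all genes tested 0.0165% passed with edgeR and 0.239% with DESeq2. Fold changes are KO over WT on the log2 scale, and ran from -0.36 for Tma16 to 0.20 for Ppan. The median was -0.030, beside -0.00088 for all genes tested, and 26 of the 43 were below 0, where 50.2% of all genes tested were. In bulk RNA, fewer cells expressing a gene and less RNA per cell cannot be told apart.

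At an unadjusted p under 0.05, 2 of the 43 were lower in KO and 0 were higher, where 3.06% and 3.86% of all genes tested were, or 6.92% in either direction. Those 2 were Tma16 and Rrs1. The 3 KO values lay wholly below the 3 WT values for Tma16, Rrs1 and Noc4l, and wholly above them for Polr1c. Over all genes tested this held for 6.3% (below) and 6.11% (above), so 3 and 1 of 43 are near or under that background. For the other 39 genes the KO and WT values overlapped.

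The libraries were tight enough to bound the size of a difference between these WT and KO libraries. If their spread is technical, the intervals do not bound a difference between mice of each genotype. The 95% interval of the log2 fold change lay inside a 1.5-fold change in either direction for 42 of the 43 genes, and Tma16 was the exception. The same held for 72.7% of all genes tested, and for 7650 of the 8300 tested genes whose mean CPM fell within the range of the listed genes. Standard errors ran from 0.0637 for Pes1 to 0.163 for Rrp1b. Counts per library ran from 177 for Polr1e to 14301 for Ncl.

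**Figure D1:**
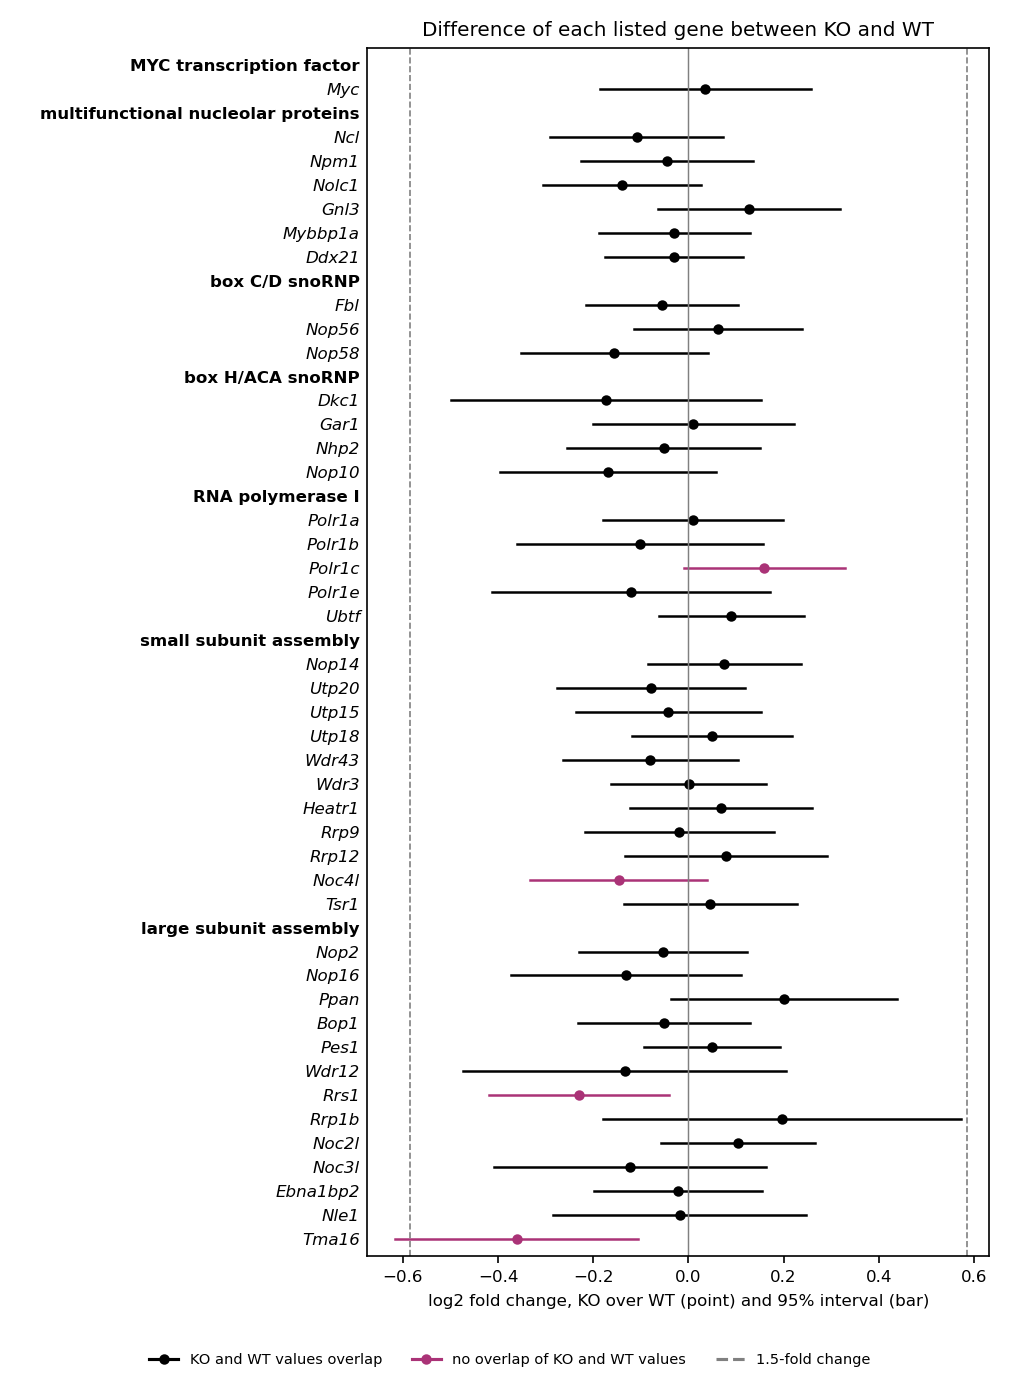
Log2 fold change of each of the 43 genes, KO over WT (points), with its 95% interval from edgeR (bars), by role in ribosome biogenesis. Only Tma16 reaches past the dashed 1.5-fold line, and the 4 coloured genes are those whose KO and WT values do not overlap.

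Myc itself was at 49.4, 57.7 and 61.1 CPM in the WT libraries and 57.6, 52.1 and 62.7 CPM in the KO libraries. The lowest value was in WT replicate 1 and the highest in KO replicate 3, and the groups overlapped. Means were 56.1 ± 6.01 CPM in WT against 57.5 ± 5.31 CPM in KO (SD, n = 3 each), a log2 fold change of 0.036 with a 95% interval of -0.19 to 0.26 (edgeR adjusted p = 0.946). Its sign changed to -0.045 without WT replicate 1 and to -0.029 without KO replicate 3. The gene lies on chromosome 15, 61985391 to 61990374, plus strand (GRCm38, GENCODE M21, which also gives the coordinates that follow).

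MYC and MAX bind the palindrome CACGTG, called the E-box, best known among their sites. The letters were looked for in the 250 bases before each annotated start in RefSeq's promoter table on GRCm38.p6. The motif reads the same on both strands. Of the 37 listed genes with an entry, 2 held it, or 5.41%, beside 9.83% of the 9381 tested genes with an entry. Counted by promoter, it was in 2 of 46 listed promoters, or 4.35%, beside 6.02% of the 32851 promoters of that table. Myc, Npm1, Fbl, Rrp12, Bop1 and Rrs1 had no entry. The 2 that held it, chosen for display for that reason and after the search, are printed 5′ to 3′ on the strand of the gene, with the E-box in capitals. The Nop2 window is chr6:125131633-125131882, plus strand, with the E-box starting 60 bases before the start, and the Utp18 window is chr11:93885767-93886016, minus strand, with the E-box 20 bases before it.
Nop2: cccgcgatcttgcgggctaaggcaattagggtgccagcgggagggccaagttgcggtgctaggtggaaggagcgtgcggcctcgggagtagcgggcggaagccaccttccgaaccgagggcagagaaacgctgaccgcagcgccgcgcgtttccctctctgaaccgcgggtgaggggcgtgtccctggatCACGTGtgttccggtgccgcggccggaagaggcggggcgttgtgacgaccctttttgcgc
Utp18: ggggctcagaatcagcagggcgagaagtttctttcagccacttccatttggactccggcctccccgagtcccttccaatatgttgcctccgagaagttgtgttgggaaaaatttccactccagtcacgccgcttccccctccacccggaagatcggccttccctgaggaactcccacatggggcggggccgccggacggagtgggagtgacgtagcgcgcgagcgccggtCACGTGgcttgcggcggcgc
Nop2, an rRNA methyltransferase of the large subunit pathway, was at 41.6, 41.2 and 44.8 CPM in WT against 43.5, 40.9 and 38.5 CPM in KO (log2 fold change -0.053). Utp18, a component of the small subunit processome, was at 36.5, 35.0 and 36.2 CPM in WT against 35.6, 38.5 and 37.4 CPM in KO (0.049). Both pairs of groups overlapped, so the 2 genes with the motif in this window showed no separation by genotype.

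The multifunctional nucleolar proteins include the most abundant RNA of the set. Npm1, nucleophosmin, a chaperone of ribosomal proteins and histones, was at 490.0, 518 and 504 CPM in WT against 487, 445 and 533 CPM in KO, with both the lowest and the highest value in KO. Ncl, nucleolin, an RNA-binding protein of rRNA synthesis and processing, was at 698, 708 and 705 CPM in WT against 665, 587 and 705 CPM in KO. The WT values of Ncl lay close together, and KO replicate 2 was the lowest of the 6 libraries. Log2 fold changes were -0.044 for Npm1 (95% interval -0.22 to 0.14) and -0.11 for Ncl (-0.29 to 0.072), with edgeR adjusted p values of 0.913 and 0.795. The value of Npm1 was 0.018 without KO replicate 2. Npm1 lies on chromosome 11 (33152287 to 33163206, minus strand) and Ncl on chromosome 1 (86344719 to 86359400, minus strand).

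Nolc1, which escorts snoRNPs between the Cajal body and the nucleolus, was at 89.9, 79.3 and 90.5 CPM in WT against 76.7, 80.5 and 78.6 CPM in KO. WT replicate 2 lay among the KO values. Its log2 fold change came to -0.14 (SE 0.0747), with an edgeR adjusted p of 0.727. Gnl3, the GTP-binding protein nucleostemin, was at 53.6, 57.7 and 60.9 CPM in WT against 64.6, 66.9 and 56.8 CPM in KO. Here KO replicates 1 and 2 lay above every WT library and KO replicate 3 did not (0.13, SE 0.0856; edgeR adjusted p = 0.783). Mybbp1a, a regulator of rRNA synthesis, and the RNA helicase gene Ddx21 had log2 values of -0.029 and -0.030, each with overlapping groups. Of these 6 genes 5 were below 0, with values from -0.14 to 0.13.

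The box C/D snoRNP genes encode the particle that places methyl groups on the ribose of rRNA. Fbl, fibrillarin, its methyltransferase, was at 97.6, 94.3 and 95.4 CPM in WT against 87.2, 90.4 and 98.8 CPM in KO. KO replicates 1 and 2 were below every WT library and KO replicate 3 above them all (log2 fold change -0.056, SE 0.0713). Its scaffold partners had values of opposite sign. Nop58 was at 111, 98.3 and 112 CPM in WT against 96.8, 86.8 and 105 CPM in KO (-0.16, SE 0.0882), while Nop56 was at 118, 122 and 137 CPM in WT against 125, 138 and 129.9 CPM in KO (0.062, SE 0.0792). Groups overlapped for all 3 genes, and their edgeR adjusted p values were 0.877 for Fbl, 0.740 for Nop58 and 0.877 for Nop56.

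The box H/ACA snoRNP genes encode the particle that turns uridine in rRNA into pseudouridine, and Dkc1, dyskerin, is its catalytic subunit. Dkc1 was at 37.5, 32.6 and 39.5 CPM in WT against 29.7, 27.2 and 40.2 CPM in KO. KO replicate 3 was the highest of the 6 libraries and the other KO libraries the lowest, so the interval was wide, from -0.50 to 0.15 around a log2 fold change of -0.17. Nop10 was at 27.3, 26.6 and 25.3 CPM in WT against 21.8, 22.2 and 26.5 CPM in KO (-0.17, SE 0.102; edgeR adjusted p = 0.755), with KO replicate 3 among the WT values. Nhp2, the member with the highest level per length in this particle, was at 58.0, 47.1 and 49.9 CPM in WT against 48.1, 48.9 and 52.5 CPM in KO (-0.052, SE 0.0908; 0.041 without WT replicate 1). Gar1 stood at 25.3 ± 2.13 CPM in WT against 25.5 ± 1.12 CPM in KO (0.011).

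RNA polymerase I transcribes the rRNA precursor, and its genes showed no common direction. Polr1c encodes a subunit that RNA polymerase III shares. It was at 37.9, 38.3 and 37.2 CPM in WT against 39.9, 42.2 and 44.6 CPM in KO. All 3 KO libraries lay above the WT libraries, with means of 37.8 ± 0.539 and 42.2 ± 2.31 CPM (log2 fold change 0.16, SE 0.0758; edgeR adjusted p = 0.722). Polr1c lies on chromosome 17, 46243920 to 46248054, minus strand. The largest subunit gene, Polr1a, was at 41.7 ± 3.30 and 42.0 ± 2.13 CPM (0.010), and Polr1b, for the next largest, at 20.4 ± 1.34 and 19.0 ± 2.33 CPM (-0.10). Polr1e, a regulatory subunit, had a value of -0.12. Ubtf, the factor that opens rRNA genes for the polymerase, was at 128.8, 117.0 and 125.7 CPM in WT against 133.2, 134.4 and 127.8 CPM in KO (0.090, SE 0.0683; edgeR adjusted p = 0.798), where WT replicate 1 lay among the KO values.

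Small subunit assembly factors work in the processome, the large particle that forms on the precursor while it is being made. Of 11 genes 5 were below 0 and 6 above, with a median of 0.00072 and values from -0.15 for Noc4l to 0.079 for Rrp12. Noc4l was at 44.1, 39.0 and 40.2 CPM in WT against 34.8, 38.0 and 38.6 CPM in KO. The KO libraries all lay below the WT libraries, by a margin of under 1 CPM at the closest (SE 0.0834; edgeR adjusted p = 0.743). Noc4l lies on chromosome 5, 110648418 to 110653417, minus strand. Nop14, whose product pairs with that of Noc4l, was at 44.9 ± 1.96 CPM in WT against 47.3 ± 1.24 CPM in KO (log2 fold change 0.075), so the partners had opposite signs and neither passed.

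The other small subunit genes overlapped between groups. Heatr1 (0.069), Utp15 (-0.042) and Wdr43 (-0.080) belong to the earliest module to bind the precursor, and Utp18 (0.049) and Wdr3 (0.00072) to the next. Wdr3 was at 39.7 ± 1.43 CPM in WT against 39.7 ± 0.841 CPM in KO, the value closest to 0 in the set. The exons of Wdr3 overlap those of Spag17 and Gdap2 on the opposite strand, over 847 bases in all. Rrp9, which sits on the U3 snoRNA, was at -0.019, and Utp20, which joins near the end of processome assembly, at -0.078. Rrp12, an export factor, was at 40.3, 39.3 and 37.6 CPM in WT against 39.5, 46.8 and 37.5 CPM in KO, where KO replicate 2 alone was high. Tsr1, which acts on the late small subunit, was at 0.046. Its exons overlap those of Srr on the opposite strand over 1240 bases.

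Large subunit assembly factors held both genes with an unadjusted p under 0.05, and 9 of 13 were below 0 with a median of -0.051. Tma16, a factor of the nuclear large subunit precursor, was at 17.8, 16.5 and 17.7 CPM in WT against 11.9, 14.6 and 13.9 CPM in KO. Every KO library was below every WT library, with means of 17.3 ± 0.737 and 13.5 ± 1.43 CPM (SD, n = 3 each). That is a log2 fold change of -0.36 (SE 0.114, 95% interval -0.62 to -0.10). It did not pass, with an edgeR adjusted p of 0.701 (unadjusted 0.0105). It stayed between -0.42 and -0.28 over 15 alternatives, with an unadjusted p under 0.05 in each. The gene lies on chromosome 8, 66473118 to 66486530, minus strand.

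Rrs1, which brings the ribonucleoprotein of the smallest rRNA into the precursor, was at 40.6, 38.8 and 38.4 CPM in WT against 34.5, 30.4 and 35.4 CPM in KO. Every KO library was again lower, with means of 39.2 ± 1.16 and 33.5 ± 2.65 CPM (log2 fold change -0.23, SE 0.0844; edgeR adjusted p = 0.702, unadjusted 0.0216). It lies on chromosome 1, 9545408 to 9547455, plus strand. Its values stayed below 0 in all 15 alternatives, from -0.27 to -0.17, but the unadjusted p was not under 0.05 without WT replicate 1, WT replicate 2 or KO replicate 2. Ppan stood at the other end. It encodes a factor of the early large subunit precursor and was at 29.2, 33.1 and 35.0 CPM in WT against 38.5, 40.8 and 32.6 CPM in KO (0.20, SE 0.107; edgeR adjusted p = 0.725). KO replicate 3 lay within the WT values.

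Pes1, Bop1 and Wdr12 encode the 3 subunits of the PeBoW complex, which processes the large subunit rRNA. Their log2 fold changes were 0.050, -0.051 and -0.13. Pes1 was at 97.2 ± 1.42 CPM in WT against 101 ± 2.57 CPM in KO, and Bop1 at 75.1 ± 4.92 and 72.5 ± 5.06 CPM. Wdr12 was at 19.0, 15.7 and 15.1 CPM in WT against 12.7, 14.4 and 18.2 CPM in KO. None of the subunits separated the genotypes. Noc2l and Noc3l, for a pair of proteins that travel with the precursor, had values of 0.10 and -0.12. Noc2l was at 140.2, 140.5 and 142.1 CPM in WT against 149.7, 163 and 141.7 CPM in KO, so KO replicate 3 fell among the tightly grouped WT libraries. Its exons overlap Samd11 on the opposite strand over 598 bases.

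The remaining large subunit genes had log2 values of -0.13 for Nop16, -0.022 for Ebna1bp2, -0.018 for Nle1 and 0.20 for Rrp1b. Rrp1b was the most variable gene of the set, at 56.5, 71.8 and 80.1 CPM in WT against 78.3, 95.6 and 65.1 CPM in KO. The coefficient of variation between WT libraries was 17.2% for Rrp1b, beside a median of 6.36% over the 43 genes, and the highest in KO was 21.3% for Dkc1, beside a median of 6.98%. In 12 of the 43 genes the means differed by more than the larger of both SDs. The share of all genes tested for which this holds was not computed, so the count is not read as a trait of the set.

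**Figure D2:**
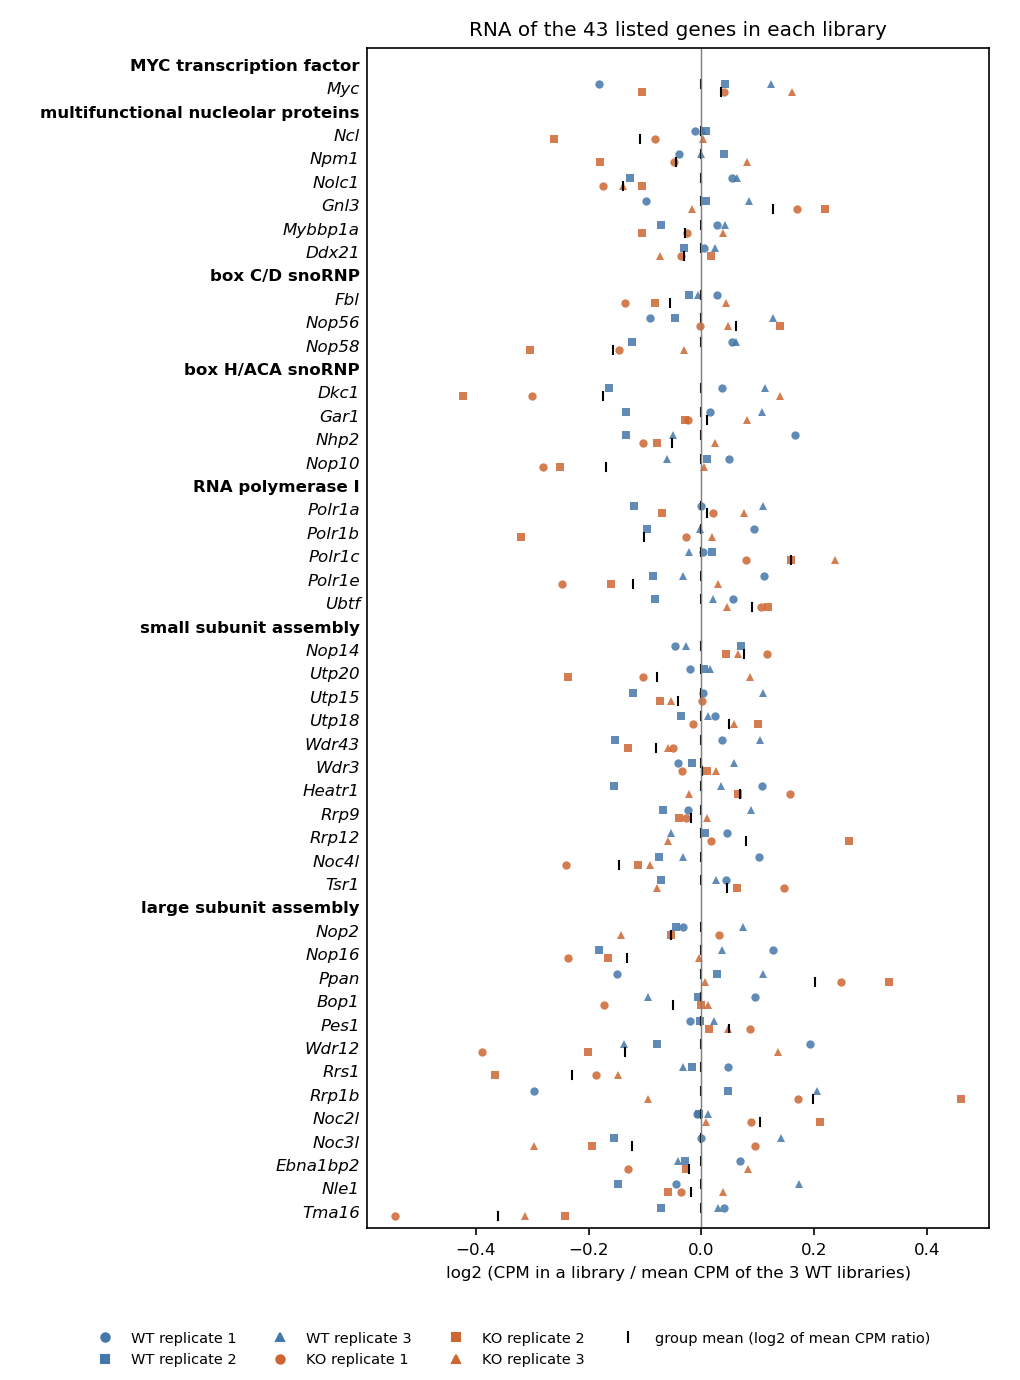
CPM of each of the 43 genes in each library, as log2 of the ratio to the mean of the 3 WT libraries, by role. WT points (blue) and KO points (orange) intermix for 39 genes, and Tma16, Rrs1, Noc4l and Polr1c are the 4 that do not overlap.

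Levels between genes were compared per length, as CPM per kilobase of mRNA, using the median length of the gene's coding transcripts with a consensus coding sequence in GENCODE. Npm1 was highest, at 361 in WT and 350.3 in KO, followed by Ncl at 85.7 and 79.5 and Fbl at 80.0 and 77.0. Tma16 was lowest, at 4.0 and 3.12, next to the polymerase subunits Polr1a (4.52 and 4.56), Polr1e (4.63 and 4.26) and Polr1b (5.10 and 4.75). Myc was at 31.8 and 32.6, above the median of the 43 genes, 18.0 in WT and 17.1 in KO. The annotated mRNAs of Ncl and Nop58 are long, at 8202 and 9507 bases, which lowers their values per kilobase. That of Tma16 is 4328 bases, so its place also rests on the annotated length. By CPM in WT, Tma16 (17.3) was above Polr1e (10.9), the lowest of the set. In CPM, the WT level of the listed genes ranged from the 30.9th percentile of all genes tested for Polr1e to the 98.5th for Ncl.

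**Figure D3:**
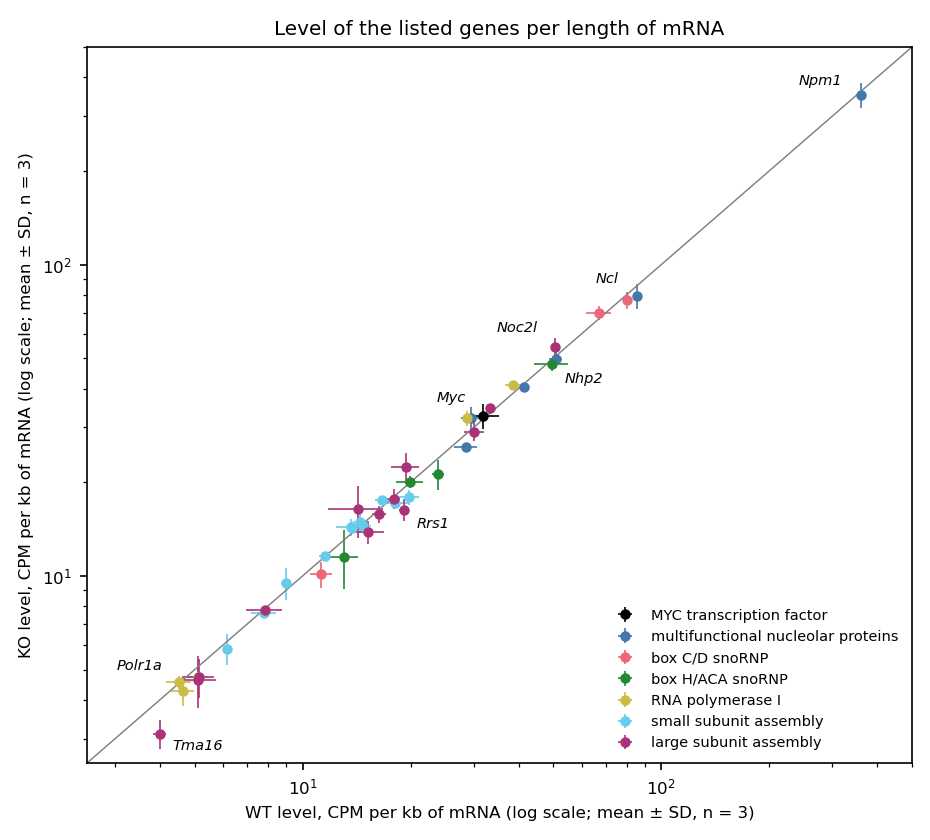
Mean level per kilobase of mRNA in WT (horizontal) and KO (vertical), both on log axes, with SD of 3 libraries; colours give the role. The points follow the line of equality from Tma16 at 4.0 in WT to Npm1 at 361.

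Several of the listed genes also carry snoRNA genes within their bounds. GENCODE places at least 1 snoRNA inside 8 of the 43, or 18.6%, beside 1.71% of 11694 tested protein-coding genes. These hosts were Ncl, Gnl3, Nop56, Nop58, Dkc1, Wdr43, Tsr1 and Ppan, and Nop56 held the most with 5. Of the 8, 4 had log2 values above 0 and 4 below, from -0.17 for Dkc1 to 0.20 for Ppan. The snoRNAs themselves are not analysed here.

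Libraries of the same genotype differed in the summed level of the listed genes. Summed over the 43 genes, levels were 3685, 3617 and 3757 CPM in WT against 3603, 3510.4 and 3723 CPM in KO. Without Ncl and Npm1 they were 2497, 2391 and 2549 CPM in WT against 2451, 2478 and 2485 CPM in KO. Both sets of sums overlapped between genotypes. WT replicate 3 held the highest value for 13 of the 43 genes and WT replicate 2 for 1, while KO replicate 2 was highest for 8 and lowest for 8. KO replicate 3 was nearer to WT than the other KO libraries for Fbl, Dkc1, Nop10, Gnl3, Ppan and Noc2l. Without it, 5 listed genes were lower (Dkc1, Nop58, Nop10, Rrs1 and Tma16) and 2 higher (Ppan and Gnl3) at an unadjusted p under 0.05, where 12.4% of all genes tested were, and 0 passed the adjusted threshold with edgeR.

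The wider pathway was described with 7 further lists. The list of MYC's network holds its partner Max, the antagonists that compete for MAX, cofactors, and ubiquitin ligases that act on MYC. Of its 17 genes in the table, 15 were tested. Of these, 5 were below 0 and 10 above, where 50.2% of all genes tested were below 0. The median was 0.055, and 0 were called by edgeR or DESeq2. At an unadjusted p under 0.05, 1 was lower and 2 higher, where 6.92% of all genes tested passed in either direction. These were Hcfc1, a cofactor of MYC (168.7 ± 11.4 CPM in WT, 149.3 ± 8.85 in KO; log2 fold change -0.18, SE 0.0781), Mnt, a repressor that binds MAX (74.6 ± 7.25 and 87.4 ± 9.12 CPM; 0.23, SE 0.0988), and Mlxip, a glucose-responsive relative (77.2 ± 8.19 and 93.9 ± 15.8 CPM; 0.28, SE 0.125). Their edgeR adjusted p was 0.713. The value of Mlxip was 0.14 without KO replicate 2, and that of Mnt 0.15 without WT replicate 1. Max was at 65.0 ± 4.04 and 63.2 ± 3.23 CPM (-0.041).

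Further ribosome biogenesis genes numbered 131, all tested, and 97 of them, or 74.0%, were below 0, with a median of -0.043. The share below 0 was 50.2% for all genes tested. It was 52.1% for tested genes whose mean CPM fell within the range of the 43 listed genes. None was called by edgeR or DESeq2, and 0 had an unadjusted p under 0.05 in either direction. KO values lay wholly below WT for 8 and wholly above for 1, so the share without overlap was not above that of all genes tested. Small subunit factors numbered 44, of which 34 were below 0 (median -0.046), with Emg1, an rRNA methyltransferase, at -0.15 (SE 0.0800), Rcl1 at -0.22 (SE 0.121) and Tsr3 at 0.24 (SE 0.140). Large subunit factors numbered 48, of which 37 were below 0 (median -0.045), with Sdad1 at -0.19 (SE 0.0916), Mrto4 at -0.17 (SE 0.0870) and Pelp1 at -0.16 (SE 0.0855).

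The counts below 0 that follow stand beside 50.2% of all genes tested. Other parts of RNA polymerase I and its factors counted 10 of 16 below 0 (median -0.073). They ran from Polr2h, a subunit shared by the nuclear polymerases (-0.22, SE 0.111), to Taf1c, of the selectivity factor that recruits the enzyme (0.34, SE 0.159), with Twistnb, another subunit gene, at -0.16 (SE 0.110). Of 9 other snoRNP factors 8 were below 0 (median -0.068), among them Znhit6 at -0.17 (SE 0.130) and the helicase genes Ruvbl2 and Ruvbl1 at -0.075 and -0.068. The RNA exosome, which trims rRNA ends, had 8 of 14 below 0 (median -0.016), with Exosc4 at 0.14 (SE 0.115), Mphosph6 at 0.13 (SE 0.106) and Dis3 at -0.11 (SE 0.0891). Of 26 MYC targets outside the ribosome pathway, 22 were below 0 (median -0.071), with the serine and glycine enzyme Shmt2 at -0.13 (SE 0.0734), the transferrin receptor Tfrc at -0.18 (SE 0.101) and the prohibitin gene Phb at -0.17 (SE 0.0958). None of these genes had an unadjusted p under 0.05, and 0 were called by edgeR or DESeq2.

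**Figure D4:**
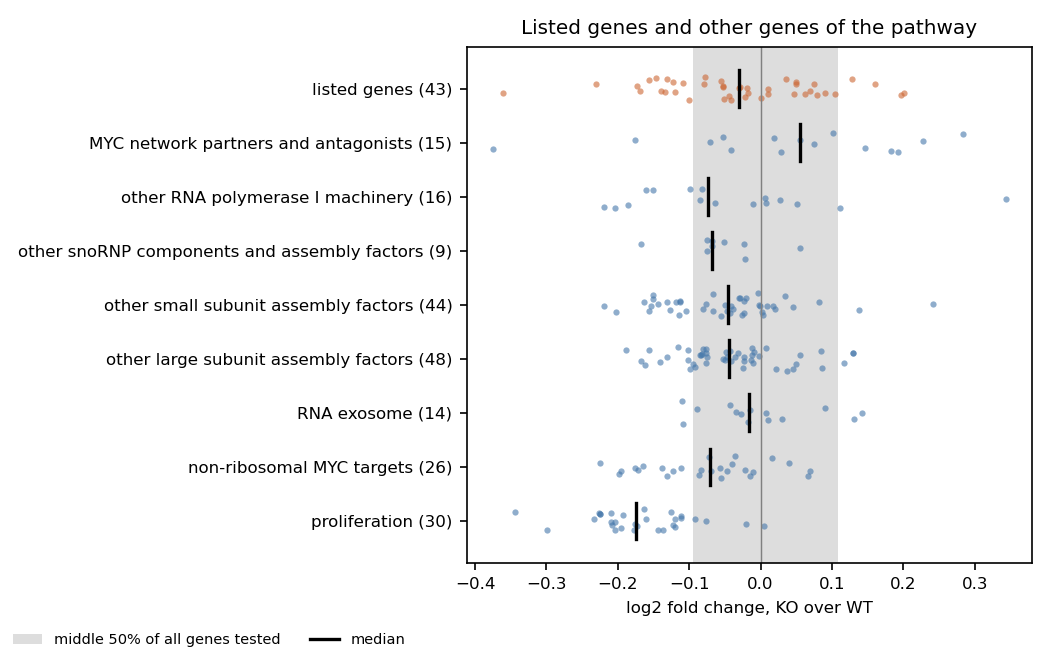
Log2 fold change, KO over WT, of every tested gene in the set of 43 (orange) and in the further lists (blue), with the number of genes in brackets, the median of each list as a black bar, and the middle 50% of all genes tested as a grey band. The medians lie within the band for every list except proliferation, at -0.17.

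Cycling cells and other cell types were measured beside these genes. Of 30 proliferation genes 29 were below 0, beside 50.2% of all genes tested, with a median of -0.17. At an unadjusted p under 0.05, 9 were lower and 0 higher, beside 3.06% and 3.86% of all genes tested, and in 7 the KO values lay wholly below WT, beside 6.3%. None was called by edgeR and 1 by DESeq2. These genes summed to 2574 ± 107 CPM in WT against 2259 ± 199 CPM in KO (exact permutation p = 0.2). Mki67, the marker of cycling cells, was at 265 ± 20.8 CPM in WT against 208 ± 7.78 CPM in KO (log2 fold change -0.34, SE 0.0776; edgeR adjusted p = 0.694, called by DESeq2 just under the threshold). By library, the mean centred log2 CPM of the proliferation genes was 0.13, 0.0098 and 0.12 in WT and -0.088, -0.23 and 0.061 in KO. That of the 43 listed genes was 0.030, -0.037 and 0.054 in WT and -0.033, -0.032 and 0.018 in KO. In both, KO replicate 3 was the highest KO library. The part of cycling cells in the values of the listed genes was not tested.

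Neutrophil markers, 13 of 13 in the table, summed to 85.7 to 120 CPM in WT against 132 to 182 CPM in KO (exact permutation p = 0.1, the smallest it allows). The most abundant was Mmp9 (39.5 CPM in WT, 78.9 CPM in KO), while Cxcr2, Ly6g, Camp, Ngp, Mpo and Elane were each under 0.5 CPM. Of the 7 neutrophil markers tested, 6 had a log2 fold change above 0 and 1 below, with a median of 0.69, where 50.2% of all genes tested were below 0. At an unadjusted p under 0.05, 4 were higher and 0 lower, beside 3.86% and 3.06% of all genes tested. In 2 the KO values lay wholly above WT, beside 6.11%. T and NK cell markers (18 of 21 in the table) summed to 159 to 206 CPM in WT against 194 to 293 CPM in KO, with Il7r the most abundant (132 and 161 CPM). Of the 17 tested, 16 had a log2 fold change above 0 and 1 below, with a median of 0.38, where 50.2% of all genes tested were below 0. Of the 17, 3 were higher at an unadjusted p under 0.05, beside 3.86% of all genes tested. In 1 the KO values lay wholly above WT, beside 6.11%. Dendritic cell markers (10 of 10) summed to 21.9 to 34.9 CPM in WT against 23.8 to 49.7 CPM in KO, and B and plasma cell markers (9 of 9) to 1.46 to 1.94 and 1.03 to 2.86 CPM. Endothelial markers (8 of 8) summed to 61.9 to 72.9 CPM in WT against 65.99 to 89.0 CPM in KO. Fibroblast markers (10 of 10) summed to 208 to 324 and 207 to 299 CPM. Tumour epithelial markers (12 of 12) summed to 80.8 to 148 CPM in WT against 118 to 142 CPM in KO, of which Cdh1 made 115 and 121 CPM, while Krt20 and Cldn4 were at 0 in every library and Epcam, Krt8, Krt18 and Krt19 were each under 0.5 CPM. Of the 12 macrophage genes, 9 were below 0 (median -0.10), beside 50.2% of all genes tested. At an unadjusted p under 0.05, 2 were lower, beside 3.06%, and 4 lay wholly below WT, beside 6.3%. Apart from the neutrophil sum the ranges of the sums of other cell types overlapped. The part of other cells' RNA in the values of the listed genes was not tested.

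**Figure D5:**
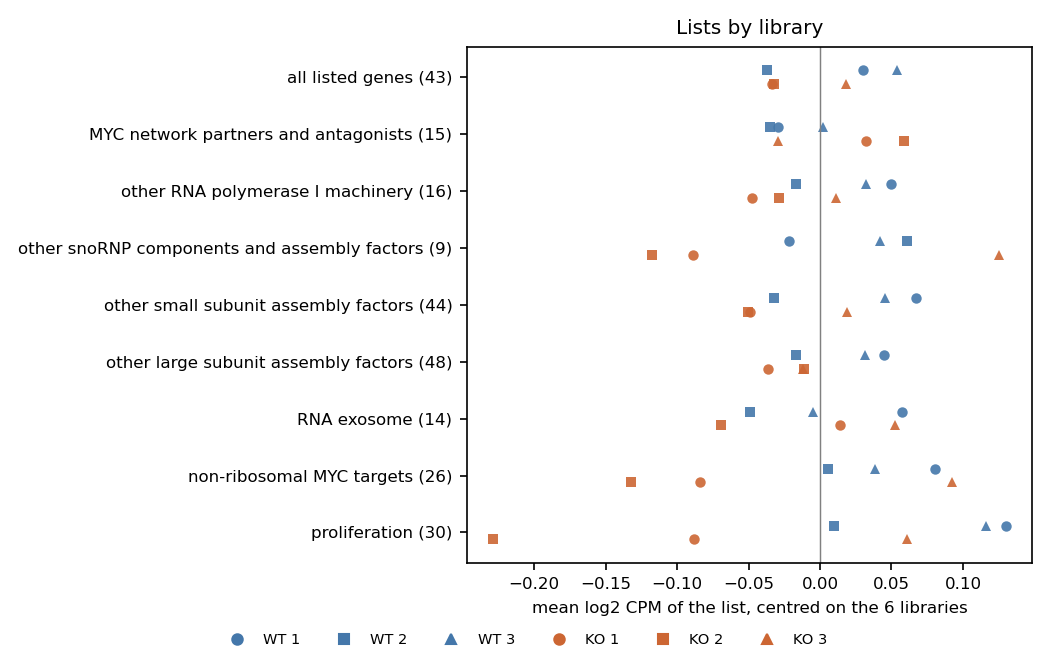
Mean log2 CPM of each list in each library, centred on the 6 libraries, for the set of 43, the further pathway lists and proliferation; blue is WT, orange is KO and the symbol is the replicate number. KO replicates 1 and 2 lie left of all WT libraries in the MYC targets, proliferation, and the other RNA polymerase I, snoRNP and small subunit lists. In the set of 43, every KO library (-0.033, -0.032 and 0.018) lies within the WT range, -0.037 to 0.054.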

How the data were processed

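The deposited table gives raw read counts per gene, whole numbers that the authors did not normalize. Per the labels' protocols, a mirVana kit gave the RNA and a stranded TruSeq mRNA kit the libraries. The submitters' processing notes name Trimmomatic, HISAT2, Cufflinks, HTSeq and mm10, with neither version nor role. The strand setting of the counting was not given in the sources used here, and exons of 18 of the 43 genes overlap a gene on the opposite strand, so their values are uncertain to that extent.

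KO was compared with WT in edgeR 4.0.16 (R 4.3.3): filterByExpr (minimum count 10, minimum total 15), TMM factors, a robust quasi-likelihood fit with genotype as the only term, and Benjamini-Hochberg adjustment over 12136 genes at 0.05. The script was tested on simulated data. Values are CPM with TMM-scaled totals, as mean ± SD, and list means use log2 CPM with a prior count of 2. Sums of markers were compared by two-sided exact permutation tests. Coordinates come from GENCODE M21 and promoters from RefSeq, both on GRCm38, the assembly that mm10 names.

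Values in every library are given for Myc, the 8 listed genes with the smallest p, the 4 with the smallest p among those with a log2 fold change above 0, those without overlap and the highest per length in each role; a few more genes were added after their values were seen. The 3 genes with the smallest p are named from each further list. The genes and lists were chosen with earlier results of these data known. Alternatives were other scalings (RLE, upper quartile, library totals), 2 other filters, DESeq2 1.42.0, limma-voom (limma 3.58.1), the replicate number as a block, a fit that was not robust, and each library left out in turn.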

Additional observations from a re-analysis of the deposited data

How the results depend on the processing

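No listed gene was called under any of 15 alternatives. The number of listed genes below 0 ran from 26 to 27 under other scalings, filters and tests, and from 23 (without WT replicate 3) to 30 (without KO replicate 3) with one library left out. Their median log2 fold change ran from -0.047 to -0.0091 with one library left out. Of 15 listed genes given in full, 12 kept their sign in every alternative. The exceptions, with one library left out, were Myc (-0.045 without WT replicate 1, -0.029 without KO replicate 3, up to 0.10 without KO replicate 2), Npm1 (-0.11 to 0.018, above 0 without KO replicate 2) and Nhp2 (-0.11 to 0.041, above 0 without WT replicate 1). Over all genes, 2 were called, 1 with RLE, upper-quartile or total scaling, no filter or limma-voom, 0 with at least 1 CPM in 3 libraries, 29 with DESeq2, and 0 to 5 with one library left out. With the replicate block 1 gene was called. Same-numbered libraries did not deviate together (Pearson r -0.057, -0.094 and -0.11 across genes). The labels do not say whether a shared number marks a pair. These values cannot settle it, since each library was centred on the mean of its own 3. Differences of marker sums (KO minus WT) were recomputed with RLE scaling and, chosen after the data were seen, with upper-quartile or total scaling and each library left out. Those of dendritic cell (-2.11 to 10.9 CPM), tumour epithelial (-13.0 to 20.4 CPM) and fibroblast markers (-30.4 to 30.3 CPM) changed sign with one library left out.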

Other observations

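The deposited table's own Gene Ontology annotation gives a definition of this biology that does not rest on the list of 43. Outside that list, 631 tested genes carry the term nucleolus, and 369 of them had a log2 fold change below 0, with a median of -0.024. Of these, 17 were lower and 19 higher at an unadjusted p under 0.05, 0 were called by edgeR and 1 by DESeq2. Over all genes tested 50.2% were below 0, 3.06% were lower and 3.86% higher at that p, and 0.239% were called by DESeq2. The term rRNA processing is carried by 109 tested genes outside the list, with 77 below 0 and a median of -0.042, of which 0 were lower and 2 higher at that p. The term ribosome biogenesis is carried by 79, with 57 below 0, a median of -0.048, and 0 lower and 1 higher. These sets share genes with each other and with the 131 further ribosome biogenesis genes, so they are not separate evidence.

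Mxd1, a MYC antagonist that rises in differentiating myeloid cells, was named after its values were seen. It was at 367 CPM in WT replicate 1 and at 193 to 241 CPM in the other 5 libraries, with a log2 fold change of -0.38 (SE 0.199; edgeR adjusted p = 0.731). Mxd4, another antagonist, was also named after its values were seen. It was at 13.4, 13.5 and 14.0 CPM in WT and 15.5, 15.8 and 15.1 CPM in KO, without overlap (log2 fold change 0.18, 95% interval -0.041 to 0.41; edgeR adjusted p = 0.733). Of the 15 tested MYC network genes, 1 lay wholly above WT and 0 wholly below, beside 6.11% and 6.3% of all genes tested.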
